A study of Mus musculus with 531 samples.

Results

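The genes *Pou5f1*, *Sox2*, *Sall4*, *Utf1*, *Lin28a* and *L1td1* were followed through the mouse embryo from E4.5 to E6.5. These 6 genes were named as general pluripotency genes, and were found by their Ensembl identifiers among the 22084 genes of the deposited table, which held all 6. Their RNA was measured by scM&T sequencing, in which the RNA of a single cell is read by Smart-seq2 while its DNA is kept for bisulfite sequencing (the methylation data are not analysed here). The embryos were C57Bl/6Babr without any treatment, and the labels give 91 cells of 5 embryos at E4.5, 80 cells of 1 embryo at E5.5 and 93 cells of 2 embryos at E6.5, although the methods count 1 embryo fewer at E4.5. The cells had been picked with a pipette after immunosurgery against the trophectoderm at E4.5, after the visceral endoderm and extraembryonic ectoderm had been pulled away at E5.5, and after dissection of the extraembryonic tissue at E6.5. No label gives the sex of an embryo. Cells with at least 50000 reads and 2000 genes were kept, 217 of 264.

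OCT4, the product of *Pou5f1*, and SOX2 are transcription factors that bind DNA side by side at many enhancers of pluripotent cells, and SALL4 is a zinc finger factor of the same network that is also known from primitive endoderm. UTF1 is a chromatin factor restricted largely to pluripotent and germ cells. LIN28A and L1TD1 bind RNA: LIN28A is known for blocking the maturation of let-7 microRNAs, and L1TD1 derives from a LINE-1 open reading frame and is found with LIN28A. In the blastocyst the inner cell mass separates into epiblast and primitive endoderm, the epiblast passes through pluripotency to gastrulation, and primitive endoderm gives rise to visceral endoderm.

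In the GENCODE M21 annotation (GRCm38), *Pou5f1* (ENSMUSG00000024406) lies at chr17:35506018-35510772 and *Sox2* (ENSMUSG00000074637) at chr3:34650405-34652461, both on the plus strand. *Sall4* (ENSMUSG00000027547) lies at chr2:168748332-168767943 and *Lin28a* (ENSMUSG00000050966) at chr4:134003330-134018841, both on the minus strand. *Utf1* (ENSMUSG00000047751) lies at chr7:139943789-139945112 and *L1td1* (ENSMUSG00000087166) at chr4:98726734-98738480, both on the plus strand. *Sox2* sits inside the longer noncoding gene *Sox2ot* on the same strand, so unspliced *Sox2ot* RNA over *Sox2* cannot be told apart from *Sox2* in these counts. Promoters of 300 bases, from 250 before to 50 after the RefSeq start site (GRCm38.p6), were found for 5 of the 6 genes. The windows of 4 genes are shown, of the 3 that were lower in endoderm-like cells at both E4.5 and E5.5 and of *Lin28a*, which passed the test at neither stage.
The windows are chr17:35505782-35506081 (plus) for *Pou5f1*, chr3:34649745-34650044 (plus) for *Sox2*, chr4:98726504-98726803 (plus) for *L1td1* and chr4:134018767-134019066 (minus) for *Lin28a*.
Capitals mark matches on either strand to the octamer core ATGCAAA, to the core of SOX sites, which is ACAAAG, to a half-site of nuclear receptors, which reads AGGTCA, to the GC box in the form GGGCGG, to the CCAAT box and to a TATA box written TATAAA.
Pou5f1: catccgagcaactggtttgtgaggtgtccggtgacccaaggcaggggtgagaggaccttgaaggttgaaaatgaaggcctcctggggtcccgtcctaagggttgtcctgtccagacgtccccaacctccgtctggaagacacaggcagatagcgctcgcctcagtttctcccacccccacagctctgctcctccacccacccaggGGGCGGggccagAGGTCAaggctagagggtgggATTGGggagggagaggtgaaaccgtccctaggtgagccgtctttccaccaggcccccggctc
Sox2: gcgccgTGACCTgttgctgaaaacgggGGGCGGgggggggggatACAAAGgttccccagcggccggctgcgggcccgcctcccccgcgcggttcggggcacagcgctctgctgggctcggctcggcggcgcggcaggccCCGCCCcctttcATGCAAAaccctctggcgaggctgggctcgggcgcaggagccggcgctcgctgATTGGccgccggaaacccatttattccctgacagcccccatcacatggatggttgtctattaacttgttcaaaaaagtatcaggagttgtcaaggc
L1td1: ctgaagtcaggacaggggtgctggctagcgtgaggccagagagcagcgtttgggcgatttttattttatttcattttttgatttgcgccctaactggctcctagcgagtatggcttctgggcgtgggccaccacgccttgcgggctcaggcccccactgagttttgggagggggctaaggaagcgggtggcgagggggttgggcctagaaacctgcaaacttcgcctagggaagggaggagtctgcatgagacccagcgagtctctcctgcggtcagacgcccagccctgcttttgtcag
Lin28a: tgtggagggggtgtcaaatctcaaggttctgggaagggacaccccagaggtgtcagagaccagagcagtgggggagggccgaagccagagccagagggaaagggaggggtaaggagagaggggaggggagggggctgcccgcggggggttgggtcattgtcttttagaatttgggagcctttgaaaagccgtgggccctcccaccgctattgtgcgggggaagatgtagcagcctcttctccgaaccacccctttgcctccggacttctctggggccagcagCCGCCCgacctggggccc

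The *Sox2* window held 6 matches: 1 each of the octamer core, the SOX core, the half-site and the CCAAT box, and 2 of the GC box. The *Pou5f1* window held 3, a GC box, a half-site and a CCAAT box within 45 bases before the start. A window at another RefSeq start of *Pou5f1*, chr17:35508557-35508856 (plus), which lies inside the gene and is not shown, held 1 CCAAT box. That of *Lin28a* held 1 GC box, 32 bases after the start, and that of *L1td1* held none. In the promoter of *Utf1*, 4 GC boxes were found, of which a pair overlap. Among 32851 RefSeq promoters of this length, 4.63% held the octamer core, 18.7% the SOX core, 16.3% the half-site, 35.7% the GC box, 37.4% the CCAAT box and 13.6% the TATA box. Such matches describe the letters only.

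Depth of the kept cells ran from 112008 to 8904445 reads, with medians of 918469, 1511811 and 1107378 in order of stage, and medians of 6985, 5242 and 9304 detected genes. Cells were put into classes by the mean log2(CPM + 1) of 15 endoderm markers minus that of 12 epiblast markers, where CPM are counts scaled to 1000000 reads of the cell, and none of the 6 genes is among the markers. A difference of at least 2 was called endoderm-like and of at most 0 epiblast-like. Cells whose mesoderm or trophoblast markers (8 each) averaged at least 4.5 or 4.0 were called mesoderm-like or trophoblast-like first. At E4.5 there were 50 endoderm-like, 20 epiblast-like and 5 unassigned cells, and at E5.5 51 epiblast-like and 8 endoderm-like cells. At E6.5 there were 20 endoderm-like, 16 epiblast-like, 22 mesoderm-like (all from embryo 2), 9 trophoblast-like and 16 unassigned cells. Within 0.5 of a cut lay 3 of 75 cells at E4.5 and 0 of 59 at E5.5, but 41 of 83 at E6.5. Leiden clusters gave the same class to the 50 endoderm-like and 20 epiblast-like cells of E4.5 but differed from the classes later. They put 7 of the 8 endoderm-like cells of E5.5 with the epiblast and left 1 unassigned, and at E6.5 they left 15 of the 16 epiblast-like and 9 of the 20 endoderm-like cells unassigned. At E5.5 no read of *Gata4*, *Gata6*, *Sox17*, *Pdgfra*, *Hnf4a* or *Cubn* was found in the 51 epiblast-like cells, and none of *Fgf4*, *Pou3f1*, *Fgf15* or *Foxd3* in the 8 endoderm-like cells. Other markers were read in both classes. *Apoe* was read in 48 and *Lrp2* in 38 of the 51 epiblast-like cells, and *Dnmt3b* in all 8 endoderm-like cells. The epiblast markers *Fgf5* and *Nodal* had higher medians in endoderm-like cells (38.6 and 24.9 CPM) than in epiblast-like cells (17.3 and 0 CPM), and the endoderm markers *Lama1* and *Pdgfra* were read in 1 and 2 of the 8 endoderm-like cells. At E6.5 all 15 endoderm markers were read in cells of both classes, with summed levels of 199 to 5556 CPM in epiblast-like and 2364 to 32057 CPM in endoderm-like cells, so this stage holds a gradient rather than separated classes. Of the 18 kept cells of E4.5 embryo 5, 6 held at least 10 reads of 4 Y-linked genes and 10 held none, whereas all 24 cells of embryo 4 and no cell of embryos 1 to 3 held as many, so the label of embryo 5 may cover cells of different embryos, and results were also computed without it. Stages carry different label prefixes, so stage and label prefix cannot be told apart in any comparison over time.

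**Figure D1:**
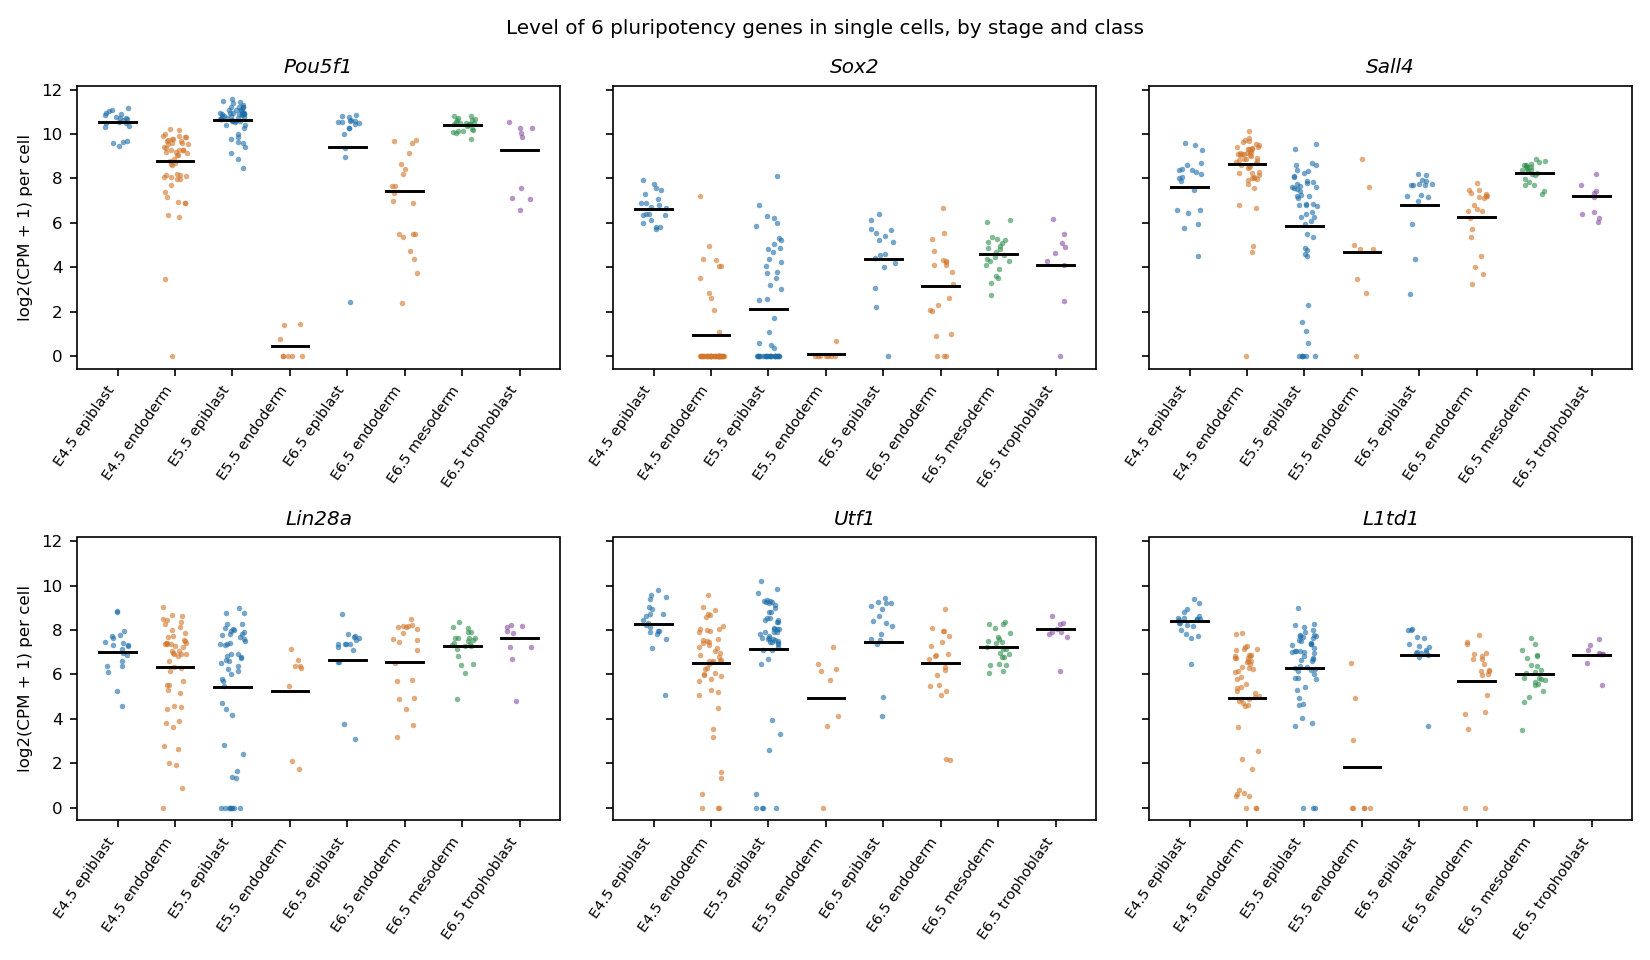
Each point is a kept cell, plotted by its log2(CPM + 1) of 1 gene (y axis) in its stage and class (x axis), and black lines are means over embryos. *Pou5f1* was at 8.48 or above in all 51 epiblast-like cells of E5.5 and at 1.46 or below in all 8 endoderm-like cells, whereas *Lin28a* ranged from 0 to 8.97 in epiblast-like and from 1.74 to 7.13 in endoderm-like cells.

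The question for the epiblast was whether the genes kept their level over time. *Pou5f1*, which encodes OCT4, stayed within the range of E4.5. Summed over the epiblast-like cells of an embryo, it was at 2042, 1588, 1481, 991 and 1712 CPM in E4.5 embryos 1 to 5, at 1719 CPM in the E5.5 embryo and at 1295 and 1280.0 CPM in the E6.5 embryos. All 3 later embryos lay between the lowest and the highest E4.5 embryo. Its fitted log2 fold change against E4.5 was 0.25 ± 0.32 (SE) at E5.5 (edgeR, adjusted p = 0.99) and -0.18 ± 0.25 at E6.5 (edgeR, adjusted p = 0.826). Every epiblast-like cell held reads of *Pou5f1*, and 1 cell of E6.5 embryo 1, at a log2 level of 2.45, stood apart from the others of its class.

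*Sox2*, the partner of OCT4, had lower values after E4.5. Its summed level was 133, 93.4, 103, 160.4 and 61 CPM in E4.5 embryos 1 to 5, 17.4 CPM in the E5.5 embryo, and 17.3 and 29.1 CPM in the E6.5 embryos. Every later embryo was below every E4.5 embryo. How many of all genes tested have this order is not given, here or for the genes below. The fitted log2 fold change was -2.56 ± 0.89 (SE) from E4.5 to E5.5 (edgeR, adjusted p = 0.364) and -2.19 ± 0.64 from E4.5 to E6.5 (edgeR, adjusted p = 0.0864), so neither passed the threshold of 0.05 in the fit of all 8 embryos. Without E4.5 embryo 5 the second value was -2.38 with an adjusted p of 0.0214. DESeq2 put both past the threshold (adjusted p = 0.00631 and 0.000642). Over all alternatives the adjusted p ran from 0.00631 to 0.505 for the first and from 0.000642 to 0.737 for the second, with a negative fold change in each.

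*L1td1*, the RNA-binding gene of LINE-1 origin, had the same order. The 5 embryos of E4.5 held 300.4, 381, 337, 307 and 486 CPM, the E5.5 embryo 117 CPM and the E6.5 embryos 167 and 157 CPM, again without overlap between E4.5 and later. Fitted log2 fold changes were -1.53 ± 0.50 (SE) at E5.5 (edgeR, adjusted p = 0.315) and -1.07 ± 0.36 at E6.5 (edgeR, adjusted p = 0.151). DESeq2 gave adjusted p = 0.0217 and 0.0241, and the alternatives together ran from 0.0217 to 0.743 and from 0.0241 to 0.941.

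*Sall4* in epiblast-like cells was at 209, 181, 449, 259.9 and 169 CPM in the E4.5 embryos, 129.9 CPM in the E5.5 embryo, and 162 and 161 CPM in the E6.5 embryos, all below the lowest E4.5 embryo. *Utf1* was at 481, 339, 408, 348 and 219 CPM, at 241 CPM, and at 209 and 394 CPM, and the stages overlapped. *Lin28a* was at 279, 148, 155, 123 and 106 CPM, at 99.5 CPM, and at 122 and 154 CPM, where both E6.5 embryos lay among those of E4.5 and the E5.5 embryo below them. The 3 genes had log2 fold changes of -0.86 ± 0.58, -0.47 ± 0.48 and -0.59 ± 0.60 (SE, in this order) from E4.5 to E5.5, and of -0.56 ± 0.43, -0.19 ± 0.36 and -0.14 ± 0.44 to E6.5, none past the threshold by edgeR.

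**Figure D2:**
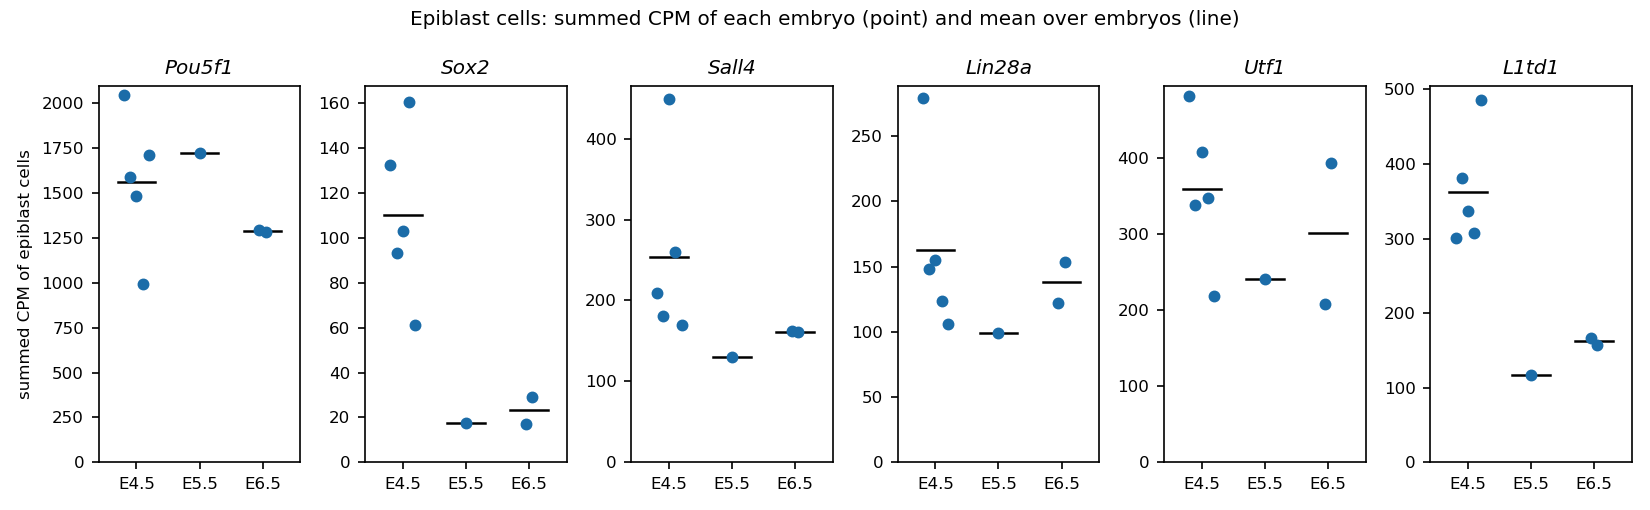
Each point is the summed CPM (y axis, from 0) of 1 gene over the epiblast-like cells of an embryo by stage (x axis), and lines are means over embryos. Points of E4.5 lie above all later points for *Sox2* (61 CPM or more against at most 29.1), *L1td1* (300.4 CPM or more against at most 167) and *Sall4* (169 CPM or more against at most 162). They overlap with later points for *Pou5f1*, *Utf1* and *Lin28a*. How many of all genes tested have such an order is not given.

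Across the 3 epiblast comparisons edgeR called 0 of the 6 genes. The background was small too. Among 12907 genes tested, the step from E4.5 to E5.5 had 0.124% called higher with 0.178% lower. Between E4.5 and E6.5 the shares were 1.13% (higher) and 1.63% (lower), and between E5.5 and E6.5 they were 0.0155% (higher) and 0.17% (lower). At an unadjusted p under 0.05, 2 of the 6 (*Sox2* and *L1td1*) were lower in each comparison with E4.5 and 0 passed between E6.5 and E5.5. DESeq2 called 2, 2 and 0 of the 6 in these comparisons, and limma with equal weight per cell 0, 2 and 0. From E5.5 to E6.5 the log2 fold changes ran from -0.43 ± 0.36 (SE) for *Pou5f1* to 0.46 ± 0.50 for *L1td1*, with *Sox2* at 0.38 ± 0.83. The median over the 6 genes was -0.73 for E5.5 and -0.37 for E6.5, each set against E4.5, beside 0.03 and 0.17 over all genes tested. With 1 embryo at E5.5, whose spread is borrowed from the other stages, the p-values measure the spread between embryos only.

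A list of genes known to work with OCT4 and SOX2, itself chosen with earlier results of these data known, was counted in the same comparisons. Of its 20 partners and targets, 2 were called lower in the E5.5 and 12 in the E6.5 epiblast when set against E4.5, and 0 higher. Without E6.5 embryo 1 or 2 the 12 became 5 or 7, and without E4.5 embryo 5 the 2 became 8. Its median log2 fold change was -2.73 and -3.34. *Esrrb*, an orphan nuclear receptor of naive pluripotency, was at 78.3 CPM over all epiblast-like cells at E4.5 and had 1 read at E5.5 (edgeR, adjusted p = 0.00381). *Spp1*, which encodes osteopontin, went from 1160 CPM at E4.5 to 49.4 CPM at E5.5 and 6.49 CPM at E6.5 (edgeR, adjusted p = 0.0345 and 1.46e-05). The *Spp1* call at E5.5 was lost without E4.5 embryo 2 or 3 (adjusted p = 0.0701 and 0.0679). *Klf2*, a naive pluripotency factor, went from 62.9 CPM at E4.5 to 1 read at E6.5 (edgeR, adjusted p = 0.0158). Its E4.5 embryos 1 to 4 held 49.6 to 107 CPM and the 2 epiblast-like cells of embryo 5 held no read, and the call was lost without either E6.5 embryo (adjusted p = 0.214 and 0.194). *Fbxo15*, an F-box gene known as a target of both factors, went from 64.7 to 0.987 CPM (adjusted p = 0.0223). All of its 21 reads at E6.5 lay in 1 cell of embryo 2, and without E6.5 embryo 1 the log2 fold change was -5.41 against -6.23 in the full fit. The call was lost without E4.5 embryo 2, 3 or 4 (edgeR, adjusted p = 0.0509, 0.0646 and 0.0536). Between E5.5 and E6.5, *Esrrb* was called higher, from 1 read to 6.91 CPM, and *Dppa5a* lower, from 3500 to 135 CPM. The *Esrrb* call was lost without E4.5 embryo 3 (adjusted p = 0.0597), in limma (0.646, where the step from E4.5 to E5.5 was lost too, at 0.109) and with Leiden classes (adjusted p = 1). 4 genes of this list (*Nanog*, *Fgf4*, *Gdf3* and *Tdgf1*) are themselves class markers, and of the 16 others 10 were called lower between E4.5 and E6.5.

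Of 9 paralogs of the 6 genes, 0 were called from E4.5 to E5.5, 1 from E4.5 to E6.5 and 0 from E5.5 to E6.5. The 1 was *Pou3f1*, a POU factor of later epiblast and also a class marker, which went from 12.2 to 238 CPM (edgeR, adjusted p = 0.00531). Its E6.5 embryos held 679 and 88.9 CPM, and 3373 of the 3648 reads of embryo 1 came from 1 cell. Without embryo 1 the log2 fold change was 2.34 and the call was lost (adjusted p = 0.613), as it was with a wider gap between classes (0.276). In the LIN28 and let-7 list of 13 genes (terminal uridylyltransferases, let-7 targets and microRNA processing enzymes) 0 were called in the 3 epiblast comparisons.

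The second question was how much of each gene remained in endoderm. At E4.5, *Pou5f1* was clearly read in endoderm-like cells. Its summed level there was 729, 730.3, 604, 547 and 285 CPM in embryos 1 to 5, which is 35.7%, 46%, 40.8%, 55.1% and 16.6% of the epiblast-like level in the same embryo. No endoderm-like value reached the lowest epiblast-like value of 991 CPM. The fitted log2 difference was -1.23 ± 0.28 (SE; edgeR, adjusted p = 0.000371, 4 embryos, since embryo 5 had only 2 epiblast-like cells and was dropped from this fit). It was read in 49 of 50 endoderm-like cells (98.0%, 95% exact interval 89.4% to 99.9%).

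*Sox2* had the largest class difference of the 6 genes at E4.5. Endoderm-like cells of embryos 1 to 5 held 1.26, 4.58, 2.85, 2.30 and 11.4 CPM, or 0.95%, 4.90%, 2.77%, 1.43% and 18.6% of the epiblast-like level. Of the 236 reads behind the embryo 5 value, 216 came from 1 cell, at a log2 level of 7.23. The log2 difference was -5.64 ± 0.79 (SE; edgeR, adjusted p = 7.19e-11). *Sox2* was read in 11 of 50 endoderm-like cells (22%, interval 11.5% to 36%) and in all 20 epiblast-like cells.

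*L1td1* and *Utf1* were also lower in endoderm-like cells of E4.5. *L1td1* was at 118, 54.9, 43, 42 and 48.2 CPM, between 9.91% and 39.4% of the epiblast-like level, with a log2 difference of -2.54 ± 0.43 (SE; edgeR, adjusted p = 1.55e-07). *Utf1* was at 291, 151, 121, 124 and 59.6 CPM, between 27.2% and 60.5%, with -1.32 ± 0.37 (SE; edgeR, adjusted p = 0.00499). For both genes each of the 5 embryos was lower in endoderm. The call of *Utf1* was lost without embryo 3 (adjusted p = 0.0871) and with equal weight per cell in limma (adjusted p = 0.0537), within a range from 0.000522 to 0.0871 over all alternatives.

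*Sall4* had higher values in endoderm-like cells at E4.5. Endoderm-like cells held 562, 515, 599, 397 and 314 CPM, which is 269%, 285%, 134%, 153% and 185% of the epiblast-like level, so it was higher in 5 of 5 embryos. The log2 difference of 0.96 ± 0.36 (SE) missed the threshold (edgeR, adjusted p = 0.0601) and passed it by DESeq2 (0.0407), with a wider gap between classes (0.0371), with embryo 5 included through sums of 2 cells (0.0355) and without E6.5 embryo 2 in the fit (0.0404), in a range of 0.0355 to 0.39 over all alternatives. *Lin28a* had no common direction, with 201, 80.1, 193, 77.6 and 159 CPM in endoderm-like cells, lower in 3 embryos and higher in the others, and a log2 difference of -0.47 ± 0.41 (SE; edgeR, adjusted p = 0.589).

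Thus 4 of the 6 genes were called lower and 0 higher in endoderm-like cells at E4.5, where 4.26% of 14311 genes tested were called lower and 7.18% higher, with a median log2 difference of 0.21 over all genes and -1.27 over the 6. By DESeq2 5 of the 6 were called, the same 4 lower and *Sall4* higher, and by limma 3. The E4.5 labels carry a pair of prefixes. *Pou5f1* was at 35.7% to 46% of the epiblast-like level in the embryos of the first prefix (1 and 2) and at 16.6% to 55.1% in those of the second (3, 4 and 5). *Sall4* was at 269% to 285% and at 134% to 185%, and *Sox2* at 0.95% to 4.90% and at 1.43% to 18.6%, so that each of the 3 kept its direction in both sets, as did *Utf1* and *L1td1*. *Lin28a* was lower in both embryos of the first prefix (54.2% to 72%) and in 1 of the 3 of the second (62.8% to 150.03%). Endoderm markers summed to 5020.2 to 29314 CPM in endoderm-like cells and 868 to 5006 CPM in epiblast-like cells, and epiblast markers to 11.9 to 1964 CPM and 1956 to 4139 CPM.

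**Figure D3:**
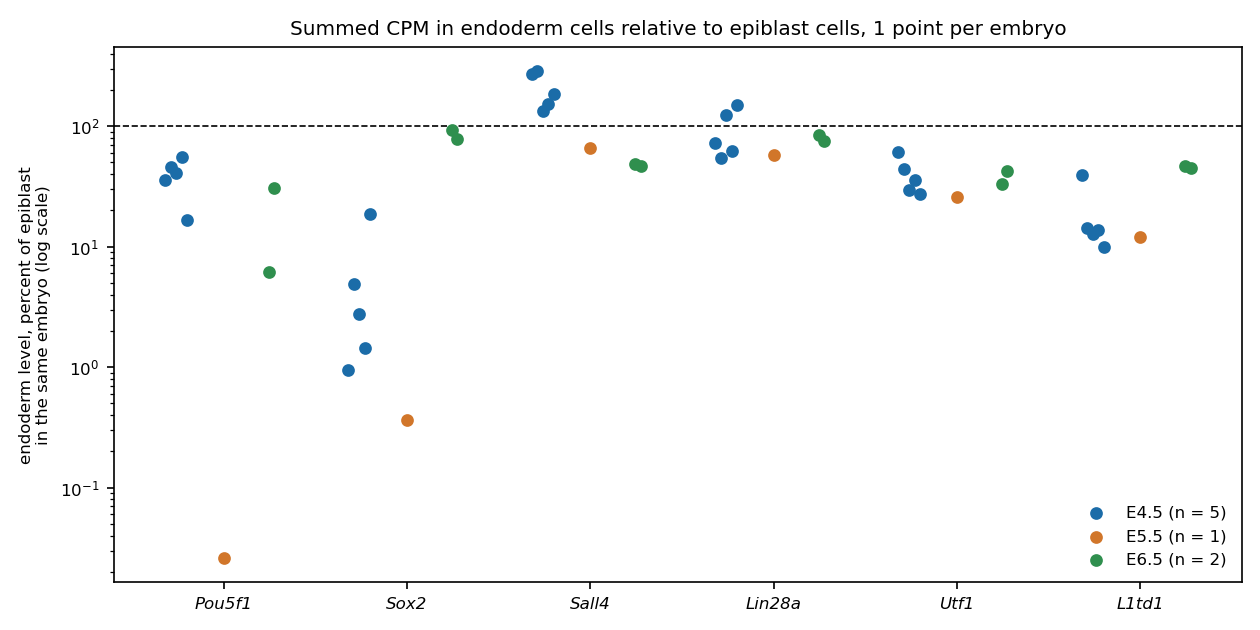
Each point is an embryo, with the summed CPM of endoderm-like cells as a percent of that of the epiblast-like cells of the same embryo (y axis, log scale) for each gene (x axis), and the dashed line marks equal levels. *Sall4* lies above 100% in 5 of 5 E4.5 embryos and below it later, and *Pou5f1* lies at 0.026% in the E5.5 embryo.

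Of the other genes of the network, 14 of the 20 OCT4 and SOX2 partners and targets were called lower and 1 higher in endoderm-like cells at E4.5 (10 and 1 of the 16 that were not class markers). The 1 was *Lefty1*, whose call was lost in 9 of 16 alternatives, DESeq2 and limma among them, and leaving out an embryo gave 12 to 14 lower. *Otx2*, a homeobox factor, was at 75.1 CPM in epiblast-like and 0.786 CPM in endoderm-like cells (edgeR, adjusted p = 3.78e-31), *Nr0b1*, an orphan nuclear receptor, at 187 and 2.16 CPM (adjusted p = 1.14e-14) and *Fgf4*, the ligand by which epiblast is known to signal to primitive endoderm and a class marker, at 126 and 0.686 CPM (adjusted p = 1.57e-16). Among the 9 paralogs 3 were lower, 2 of them among the 8 that are not class markers: *Sall3* at 22.3 against 0.067 CPM (adjusted p = 2.18e-17), *Pou3f1*, a class marker, at 12.2 against 0.033 CPM and *Pou2f1* at 73.8 against 8.66 CPM (adjusted p = 0.00067). *Sall3* was lower where the values of *Sall4* were higher. In the LIN28 and let-7 list 0 of 13 were called.

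At E5.5 *Pou5f1* was hardly detected in endoderm-like cells. Of the 8 cells, 3 held a read (37.5%, 95% exact interval 8.52% to 75.5%), with 3, 3 and 1 reads, although these cells had a median of 1806100 reads. Summed over the 8 cells it was at 0.447 CPM against 1719 CPM in epiblast-like cells, 0.026% (exact counting interval 0.0105% to 0.0536%). The fitted log2 difference was -11.71 ± 0.89 (SE; edgeR, adjusted p = 8.75e-36). Each of the 51 epiblast-like cells was above each of the 8.

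*Sox2* had 1 read in the 8 endoderm-like cells, 0.0639 CPM, against 17.4 CPM in epiblast-like cells, or 0.367% (counting interval 0.00929% to 2.05%; edgeR, adjusted p = 0.000976). *L1td1* was read in 3 of the 8, at 14 CPM against 117 CPM (11.9%), with a log2 difference of -2.89 ± 0.85 (SE; edgeR, adjusted p = 0.0148). With equal weight per cell in limma the calls of *Sox2* and *L1td1* were lost (adjusted p = 0.511 and 0.112), at log2 differences of -2.05 and -4.48. That of *L1td1* was also lost under a stricter cell filter (adjusted p = 0.165). Over all alternatives the adjusted p ran from 0.000447 to 0.511 for *Sox2* and from 0.00444 to 0.165 for *L1td1*.

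*Lin28a*, *Sall4* and *Utf1* stayed readable in these cells. *Lin28a* was read in all 8, with 57.3 CPM against 99.5 CPM in epiblast-like cells (57.6%) and a log2 difference of -0.62 ± 0.81 (SE; edgeR, adjusted p = 0.736). *Sall4* was read in 7, with 85.6 CPM against 129.9 CPM (65.9%) and -0.43 ± 0.70 (SE; adjusted p = 0.807). It had the largest spread over the 8 cells (SD 2.76, log2), from 0 to 8.90, and 2 cells held 818 and 345 of its 1339 reads. *Utf1* was read in 7, with 62.6 CPM against 241 CPM (25.9%) and -1.77 ± 0.73 (SE; adjusted p = 0.133). Under the stricter cell filter *Utf1* passed (-2.59, adjusted p = 0.0103), in a range of 0.0103 to 0.386 over all alternatives.

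Thus 3 of the 6 were called lower and 0 higher at E5.5, where 5.12% of genes were called lower and 2% higher and the median over all genes was -0.70, against -2.33 over the 6. DESeq2 called 3 and limma 1. This rests on 1 embryo with 1 sum per class, so the spread behind these p-values is borrowed from the embryos of E4.5 and E6.5, and no spread of the class difference was measured at E5.5. All 8 endoderm-like cells, and no epiblast-like cell, bear a cell number that is a multiple of 12, so that a position on the plate cannot be told apart from the class. Among the partners and targets 7 of 20 were lower and 2 higher (5 and 2 of the 16 that did not set the classes). DESeq2 called 5 lower and 1 higher and limma 1 and 0, and without either E6.5 embryo 6 were lower and 1 higher. The limma value of *Fgf4* was -3.22 (adjusted p = 0.391) and of *Zfp296* -0.83 (adjusted p = 1). *Tdgf1*, the Nodal coreceptor and a class marker, was at 736 CPM in epiblast-like cells with 2 reads in endoderm-like cells (edgeR, adjusted p = 2.61e-26). *Fgf4* had no read there, at least 249.9-fold lower (3 counts over the group), but it is a class marker, so its difference follows from that use. *Zfp296*, a zinc finger gene, had no read there either, at least 26.6-fold lower. *Lin28b*, the paralog of *Lin28a*, was at 46 CPM in epiblast-like cells and had no read in the 8 endoderm-like cells, at least 239.7-fold lower (edgeR, adjusted p = 0.00719, and 0.058 or 0.098 without E6.5 embryo 1 or 2), whereas *Lin28a* was read in each of them. Of the 9 paralogs *Pou3f1*, whose difference follows from its use as a class marker, and *Lin28b* were the 2 called lower (1 of the 8 others), and in the LIN28 and let-7 list *Lin28b* was the 1 called of 13.

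**Figure D4:**
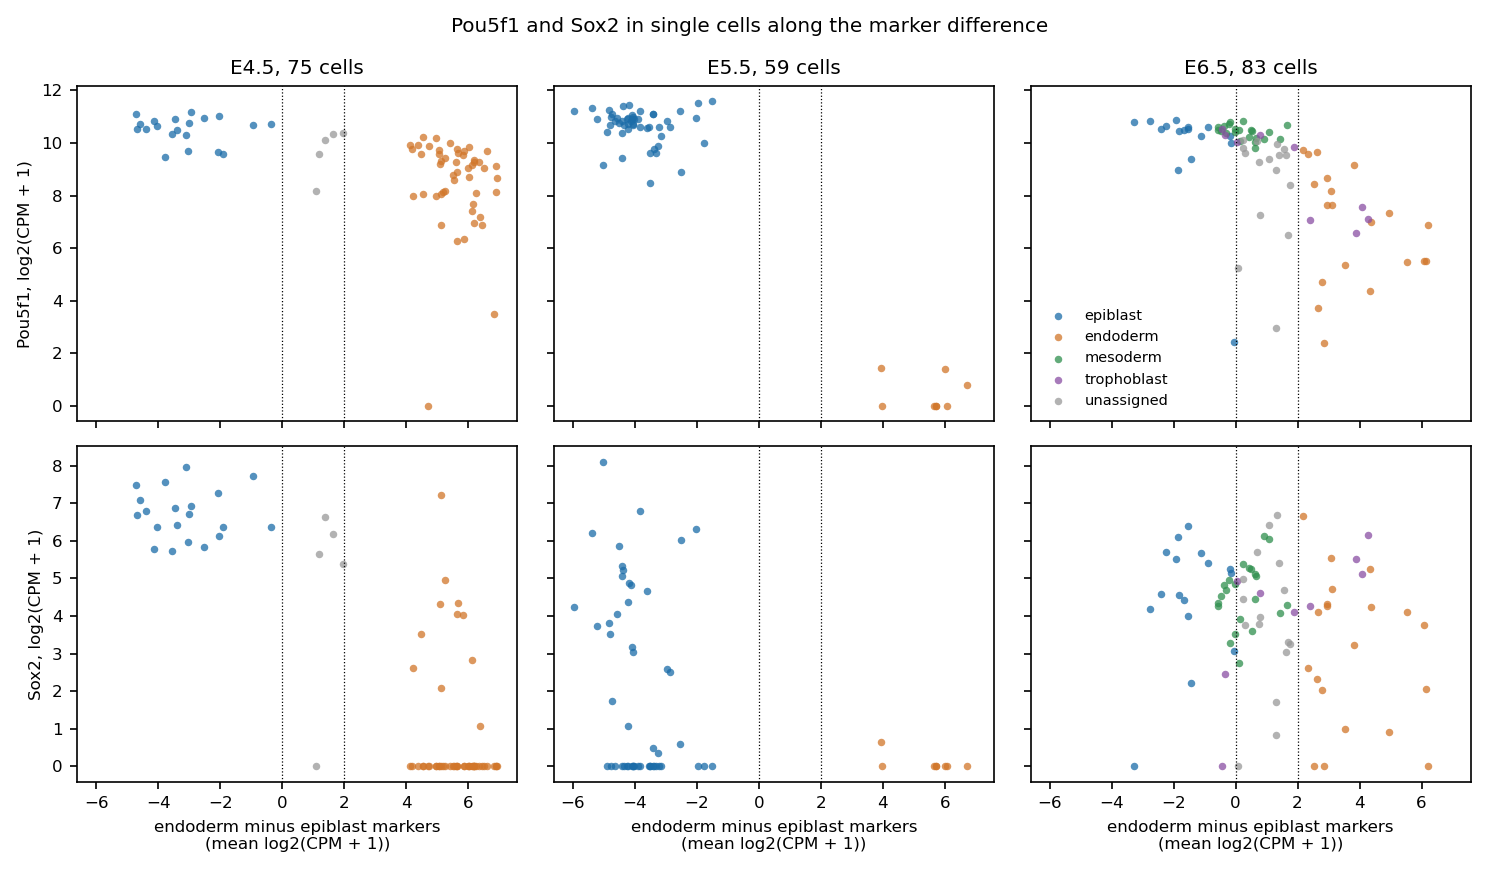
Each point is a cell, with the mean log2(CPM + 1) of endoderm markers minus that of epiblast markers (x axis) and the log2(CPM + 1) of *Pou5f1* (upper panels) or *Sox2* (lower panels), coloured by class, with dotted lines at the cuts of 0 and 2. Cells of E5.5 form separate groups, and at E4.5 5 of 75 cells lie between the cuts. At E6.5 cells fill the range without a gap, with r = -0.62 for *Pou5f1* and -0.20 for *Sox2* over 83 cells.

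At E6.5 *Pou5f1* was the 1 gene called between the classes. It was at 79.9 and 392 CPM in embryos 1 and 2, or 6.16% and 30.6% of the epiblast-like level, and its log2 difference was -2.45 ± 0.45 (SE; edgeR, adjusted p = 1.81e-05). The call was lost without embryo 1 (log2 difference -1.07, adjusted p = 0.851), without the embryo as a replicate block (-1.96, adjusted p = 0.0664) and with equal weight per cell in limma (adjusted p = 0.0615), while the alternatives ran from 2.39e-08 to 0.851. *Sox2* was at 16.2 and 22.8 CPM, 93.8% and 78.5% of the epiblast-like level, and was read in 17 of 20 cells (85%, interval 62.1% to 96.8%). Its fitted log2 difference was 0.19 ± 0.88 (SE; edgeR, adjusted p = 1), while with equal weight per cell in limma it was -1.19, so its sign differed between the fits.

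*Sall4* was at 78.8 and 75.2 CPM in these cells, 48.6% and 46.7% of the epiblast-like level, and *L1td1* at 77.9 and 71.1 CPM, 46.5% and 45.2%. *Utf1* was at 69.7 and 166 CPM, 33.4% and 42.2%. *Lin28a* was at 103 and 116 CPM, 84% and 75.2%. These 4 had log2 differences from -0.998 ± 0.51 (SE, *Utf1*) to 0.08 ± 0.57 (*Lin28a*), and none passed the threshold by edgeR. Beside 1 of 6 called lower and 0 higher, 0.224% of all genes were called lower and 1.49% higher at this stage, and the median over all genes was 0.00 against -0.68 over the 6.

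The change of the class difference from E4.5 to E6.5 was tested as an interaction. It passed for *Sox2*, with 5.83 ± 1.21 (SE, log2; edgeR, adjusted p = 0.000232), where the endoderm-like level was 0.95% to 18.6% of the epiblast-like level at E4.5 and 78.5% to 93.8% at E6.5. The call was lost with a wider gap between classes (adjusted p = 0.11), without E6.5 embryo 2 (0.0725) and in limma (0.0921), with values between 4.69 and 6.31 and adjusted p from 1.34e-06 to 0.11 in all alternatives. For *L1td1* it was 1.83 ± 0.70 (adjusted p = 0.191), for *Sall4* -1.61 ± 0.61 (0.184) and for *Pou5f1* -1.22 ± 0.52 (0.302; without E6.5 embryo 1 it was 0.23, and without embryo 2 it was -2.61 with an adjusted p of 0.00372, in a range of 0.00114 to 1). *Lin28a* and *Utf1* were at 0.55 ± 0.70 and 0.32 ± 0.62. Thus 1 of the 6 was called higher and 0 lower, where 1.66% of genes were called higher and 0.901% lower and the median over all genes was -0.34. At E6.5 epiblast markers summed to 124 to 2871 CPM in endoderm-like cells, at E4.5 to 11.9 to 1964 CPM, and their part in the *Sox2* result was not tested.

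Within endoderm-like cells, *Sall4* fell from E4.5 to E6.5. Its summed level was 314 CPM or more in each of the 5 embryos at E4.5 and at most 78.8 CPM in those at E6.5, with 85.6 CPM at E5.5, and the log2 fold change was -2.14 ± 0.48 (SE; edgeR, adjusted p = 0.00664). The call was lost with embryo numbers used as a replicate block (-2.23, adjusted p = 0.0743), with a wider gap between classes (adjusted p = 0.0601) and with classes from clusters (adjusted p = 0.126), in a range from 1.06e-05 to 0.126. *Sox2* was at 16.2 and 22.8 CPM at E6.5 and at most 11.4 CPM at E4.5, with 2.54 ± 1.09 (edgeR, adjusted p = 0.172; limma, 0.0174; alternatives 0.0174 to 0.781). *Pou5f1* was at -0.73 ± 0.55. Without E6.5 embryo 2, which had 5 endoderm-like cells, it was at -2.46 (adjusted p = 0.0404), without embryo 1 at 0.04 (adjusted p = 0.979) and with a wider gap between classes at -2.56 (adjusted p = 0.0407), in a range of 0.0404 to 0.979 over all alternatives, so each of the 2 embryos decided this value. *L1td1*, *Utf1* and *Lin28a* were at 0.80 ± 0.52, 0.23 ± 0.53 and 0.13 ± 0.49, none past the threshold. Of 13493 genes, 5.39% were called higher and 2.51% lower, beside 0 and 1 of the 6.

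Of the partners and targets 3 were called lower and 1 higher between endoderm-like and epiblast-like cells at E6.5 (2 and 0 without embryo 1, and 0 in limma), or 1 lower and 1 higher of the 16 that did not set the classes. Over time in endoderm-like cells 3 were higher and 5 lower of 19 tested (1 and 4 of the 15 that are not class markers). *Spp1* had no read in endoderm-like cells of E6.5, against 303 CPM at E4.5, at least 4623.7-fold lower (edgeR, adjusted p = 2.38e-06). *Otx2* went from 0.786 to 61.3 CPM (adjusted p = 2.53e-05). *Sall3*, a relative of *Sall4*, had 0.067 CPM at E4.5 and 90.7 CPM at E6.5 (adjusted p = 2.41e-05), but its E6.5 embryos held 2.03 and 396 CPM, and 4045 of the 4081 reads of embryo 2 came from 1 cell. Without embryo 2 the log2 fold change was 3.65 and the call was lost (adjusted p = 0.668). *Pou3f1* went from 0.033 to 19.7 CPM and *Sox3*, a close relative of *Sox2*, from no read to 5.48 CPM (at least 109.3-fold higher). Without E6.5 embryo 2 these calls were lost too (adjusted p = 0.0858 and 0.127), which left 0 of the 3 paralogs and 1 partner or target higher and 3 lower. In the class interaction 7 partners and targets were higher and 2 (*Spp1* and *Gdf3*) lower, and 2 paralogs (*Sall3* and *Pou3f1*) were higher, of which 0 remained called without E6.5 embryo 2. Class markers aside, these counts were 4 higher and 1 lower of 16 and 1 higher of 8. With equal weight per cell in limma 0 genes of these lists were called, and *Spp1*, *Gdf3* and *Pou3f1* turned from -7.57, -3.64 and 4.32 to 1.53, 3.89 and -1.27 (log2), so no direction is given for these 3. The call of *Gdf3* was lost in 10 of 15 alternatives, among them the fits without E4.5 embryo 2, 3 or 4 or either E6.5 embryo (adjusted p from 0.0639 to 0.726). At E6.5 *Tfcp2l1*, a naive pluripotency factor that is also found in epithelia, was higher in endoderm-like cells, 55.3 against 3.06 CPM (adjusted p = 1.26e-07), and *Gdf3*, a Nodal-related ligand and class marker, lower, 0.087 against 10.53 CPM. Without E6.5 embryo 1 the *Tfcp2l1* call was lost (adjusted p = 0.123).

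The mesoderm-like cells, all from E6.5 embryo 2, were set against its 12 epiblast-like cells, and 13 of the 22 lay within 0.5 of a cut. *Pou5f1* was at 1383 CPM against 1280.0 CPM (108%), *Sox2* at 26.4 against 29.1 CPM (90.9%) and *Lin28a* at 167 against 154 CPM (109%). *Sall4* was at 315 against 161 CPM (196%), *Utf1* at 156 against 394 CPM (39.6%) and *L1td1* at 82.2 against 157 CPM (52.2%). By edgeR 0 of the 6 were called, where 0.0419% of genes were called higher and 0.0559% lower, and 1 (*Utf1*, -1.61 ± 0.71) had an unadjusted p under 0.05. DESeq2 and limma called 0. With 1 sum of mesoderm-like cells no spread of this difference was measured, and the spread behind the p-values is borrowed from the other classes and embryos. The fit shares the class difference of both E6.5 embryos, which put *Pou5f1* at -0.80 ± 0.58 (SE), while without embryo 1 it was 0.03. Of the partners and targets, 2 were lower in mesoderm-like cells, *Dppa4* (29.7 CPM against 1 read) and *Dppa5a* (135 against 21.2 CPM; edgeR, adjusted p = 4.77e-05), and both calls were lost in limma (adjusted p = 0.972 and 0.0775).

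In the 9 trophoblast-like cells (8 from embryo 1) every gene but *Sox2* was read in each cell, and *Sox2* in 8. *Pou5f1* was at 577 and 919 CPM in embryos 1 and 2, *Utf1* at 217 and 315 CPM, *Lin28a* at 162 and 248 CPM and *L1td1* at 118 and 121 CPM, with *Sall4* at 127 and 175 CPM and *Sox2* at 32.2 and 16.2 CPM. The *Pou5f1* level was 44.6% and 71.8% of that in epiblast-like cells of the same embryo, and *Lin28a* 132% and 162%. No test was made with these cells, of which 8 lay within 0.5 of a cut. Their trophoblast markers summed to 263 to 658 CPM, their endoderm markers to 2659 to 11035 CPM and their epiblast markers to 695 to 3238 CPM, and the part of these in the levels was not tested. The median over cells of the mean log2 level was 4.45 for trophoblast, 6.59 for endoderm and 4.99 for epiblast markers, and Leiden clusters put 4 of the 9 cells with endoderm and left 5 unassigned, so the name stands for the rule alone.

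**Figure D5:**
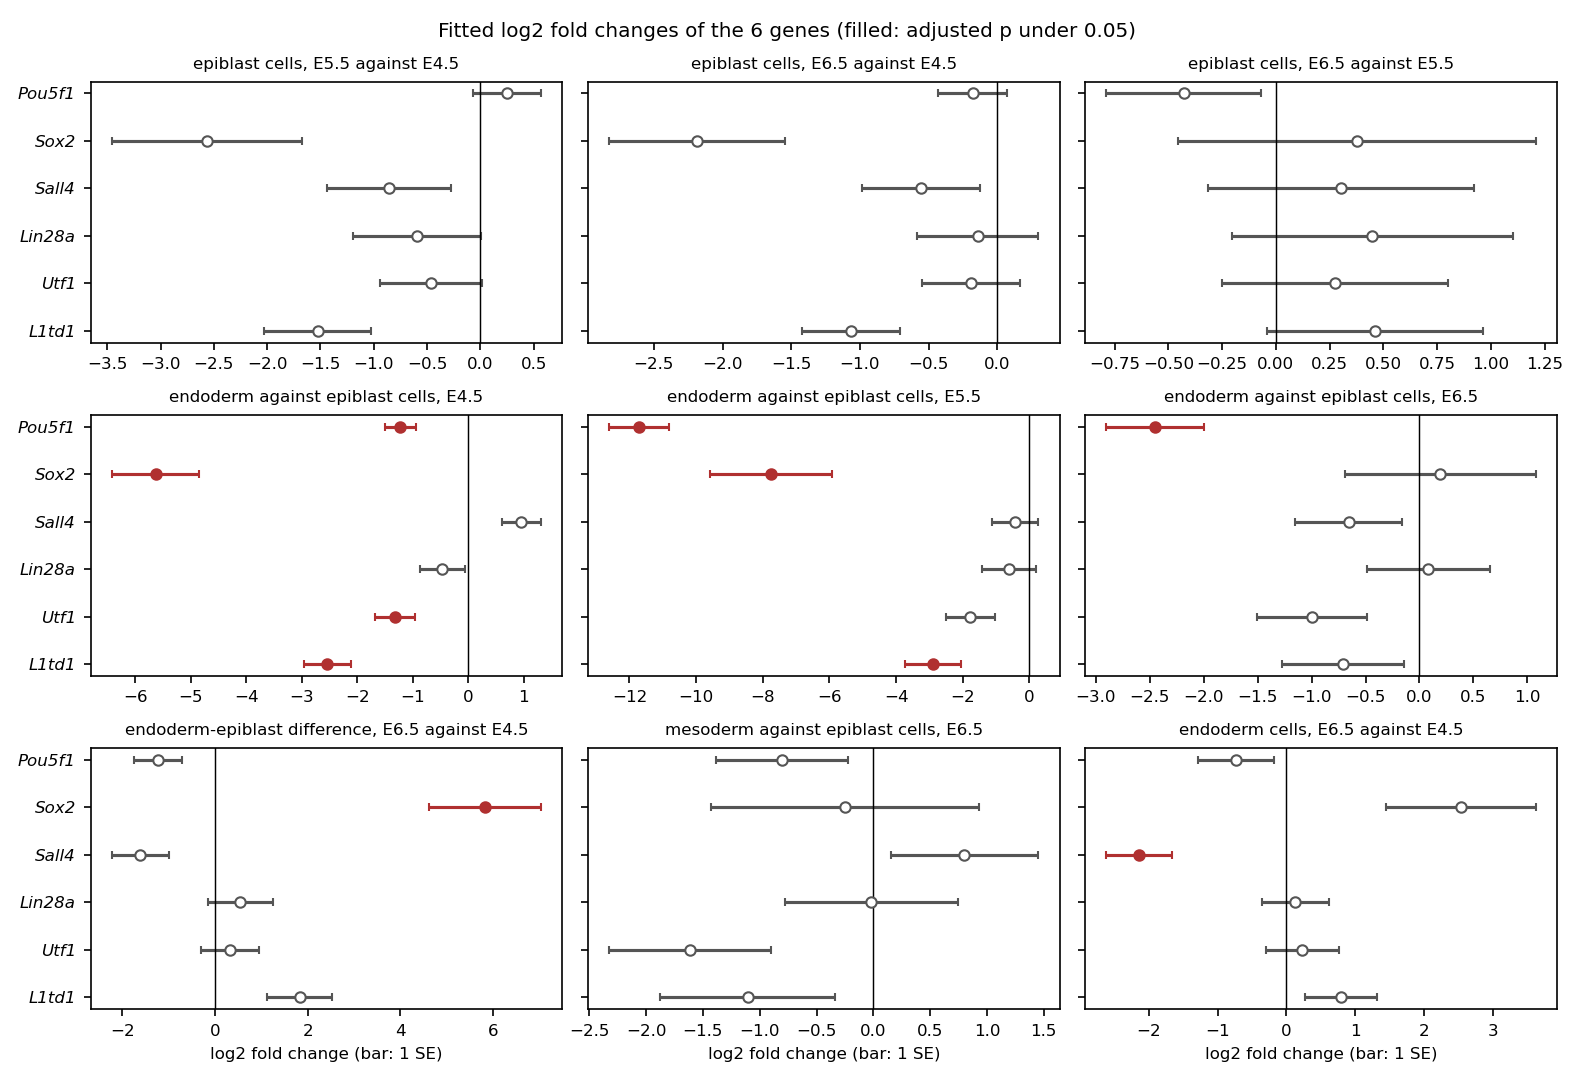
Fitted log2 fold changes (x axis) with 1 SE (bars) of the 6 genes (y axis) in the 9 comparisons, with axes that differ between panels and filled points for an adjusted p under 0.05 (edgeR). No point is filled in the epiblast and mesoderm panels, 4 are filled between classes in E4.5 embryos, 3 in the E5.5 embryo and 1 in E6.5 embryos, and the change of the class difference and endoderm over time have 1 each (*Sox2* and *Sall4*).

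Cells of one class differed in how many of the genes they held. All 6 were read in each of the 20 epiblast-like cells of E4.5, in 23 of 51 (45.1%) at E5.5 and in 15 of 16 at E6.5, and in all 22 mesoderm-like cells. Among endoderm-like cells all 6 were read in 11 of 50 (E4.5), 1 of 8 (E5.5) and 17 of 20 (E6.5). *Sox2* was the gene most often without a read at E5.5, with a read in 27 of 51 epiblast-like cells (52.9%, 95% exact interval 38.5% to 67.1%). *Lin28a* was read in 43 of 51, *Sall4* in 45, *Utf1* in 47, *L1td1* in 48 and *Pou5f1* in all. The 8 epiblast-like cells without *Lin28a* had a median of 2949 detected genes against 5772 in those with it, at 2063209 against 1370385 reads, and the 6 without *Sall4* 3436 against 5630.0 genes. For *Sox2* the medians were closer, with 5373 genes in the 24 cells without and 5638 in the 27 with a read. Intervals cover counting error only, and reads without molecular identifiers are not independent molecules.

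With every cell thinned to 50000 reads, *Sox2* was read in 31.4% of E5.5 epiblast-like cells, 10% of E4.5 endoderm-like cells and 40% of those at E6.5, so shares depend on depth, and *Pou5f1* stayed at 100% of epiblast-like cells at E4.5 and E5.5. The spread over cells differed by gene. The coefficient of variation of CPM over epiblast-like cells was 0.309, 0.357 and 0.396 for *Pou5f1* in order of stage, and 0.485, 2.31 and 0.717 for *Sox2*. Of the 51 cells at E5.5, 9 held *Sox2* at a log2 level of 5 or more, up to 274 CPM. For *Sall4* it was 0.735, 1.03 and 0.498 and for *Lin28a* 0.682, 0.987 and 0.584. *Utf1* was at 0.571, 0.844 and 0.603 and *L1td1* at 0.383, 0.772 and 0.414.

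Pearson's r between the 6 genes, over cells of 1 class that share embryos, depth and detected genes, is given as a description of 15 pairs. In the 20 epiblast-like cells of E4.5 the median r was 0.08, with a range from -0.31 (*Sox2* with *L1td1*) to 0.66 (*Sall4* with *Utf1*). In the 51 cells of E5.5 the median was 0.21, from -0.06 (*Pou5f1* with *Sox2*) to 0.78 (*Lin28a* with *Utf1*). In the 16 cells of E6.5 it was 0.66, from 0.14 to 0.88 (*Pou5f1* with *L1td1*), but these values rest on the 1 cell of embryo 1 that stood apart. Without it the median was 0.17 and *Pou5f1* with *L1td1* was at 0.06, and without the 4 cells of embryo 1 these were 0.37 and 0.03, while *Sall4* with *Lin28a* stayed at 0.75 and 0.79. The pair of partners *Pou5f1* and *Sox2* was at -0.11, -0.06 and 0.21 in these 3 groups and at -0.21 in the 22 mesoderm-like cells. In the 50 endoderm-like cells of E4.5 *Pou5f1* with *Sall4* reached 0.75.

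Along the marker difference over all cells of a stage, *Pou5f1* had r = -0.52 in 75 cells of E4.5, -0.95 in 59 cells of E5.5 and -0.62 in 83 cells of E6.5, and within the 2 E6.5 embryos -0.61 and -0.39. *Sox2* was at -0.84, -0.35 and -0.20. *Sall4* was the 1 gene with a positive value at E4.5, 0.24, between 0.10 and 0.72 within the 5 embryos. *Lin28a* was at -0.13, -0.14 and -0.08 over all cells of a stage, and within embryos it ran from -0.36 to 0.26 at E4.5 and was at -0.02 and -0.29 at E6.5.

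Between genes, levels were compared per kilobase of exon (GENCODE M21), as CPM per kilobase averaged over embryos. In epiblast-like cells of E4.5 *Pou5f1* stood at 695 ± 170.2 (SD, n = 5 embryos), *Utf1* at 293 ± 78.9, *L1td1* at 114 ± 24.01, *Sox2* at 53.5 ± 18.5, *Sall4* at 45.8 ± 20.7 and *Lin28a* at 40.6 ± 17.1. The last 3 did not differ beyond their SD. At E6.5 the order was *Pou5f1* 573 ± 4.82 (SD, n = 2), *Utf1* 245 ± 107, *L1td1* 51.1 ± 2.23, *Lin28a* 34.5 ± 5.55, *Sall4* 29.2 ± 0.19 and *Sox2* 11.3 ± 4.04, and *Lin28a* and *Sall4* were within an SD of each other. In endoderm-like cells of E4.5 *Pou5f1* was again first at 258 ± 81.3 (SD, n = 5) and *Sox2* last at 2.17 ± 1.96, with *Utf1* at 122 ± 70.2, *Sall4* at 86.3 ± 21.5, *Lin28a* at 35.6 ± 14.97 and *L1td1* at 19.3 ± 10.2 between them.

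Across all 217 kept cells, among 8039 genes with a mean of at least 10 CPM, the genes most like each member in log2(CPM + 1) were *Ifitm2*, *Snrpn* and *Prps1* for *Pou5f1* (r = 0.66, 0.64 and 0.63), *Tmsb4x*, *Bcat1* and *Igfbp2* for *Sox2* (0.57, 0.56 and 0.56), and *P4hb*, *Ipo7* and *Hnrnpab* for *Sall4* (0.67, 0.63 and 0.63). For *Lin28a* they were *Sf3b4*, *Hnrnpab* and *Rnf44* (0.65, 0.63 and 0.59), for *Utf1* *Pkm*, *Ppp5c* and *Sf3b4* (0.64, 0.61 and 0.61), and for *L1td1* *Chchd10*, *Slc7a3* and *Bcat1* (0.63, 0.56 and 0.55). *Slc7a3* is one of the epiblast markers that set the classes. Cells of all stages and classes are pooled in these values, which share depth and embryo.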

How the data were processed

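RNA of single cells was read by Smart-seq2 in the scM&T protocol. The deposited values are raw counts of reads per Ensembl gene (22084 genes, 264 cells), which the authors made from alignments to GRCm38. The submitters' processing notes name Trim Galore (0.4.5 and 0.4.2), cutadapt 1.8.1, HISAT2 2.1.0 and featureCounts, and the gene annotation is not given in the sources used here. Symbols were matched for 21907 genes. Doublets were not called. The 6 genes and the gene lists were chosen with earlier results of these data known, and the class cuts after marker values had been seen. For each gene the 3 most correlated genes, and of each list up to 3 called genes with the largest change, are named.

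Counts of the kept cells were summed per embryo and class (at least 3 cells for class comparisons, with the embryo as a block) and tested with edgeR 4.0.16 (R 4.3.3; quasi-likelihood test, TMM, filterByExpr, Benjamini-Hochberg over all genes tested, threshold 0.05). The scripts were tested on simulated data. Alternatives were DESeq2 1.42.0, limma 3.58.1 on mean log2(CPM + 1), no filter on low counts, at least 200000 reads and 4000 genes, classes from Leiden clusters (scanpy 1.11.5), other blocks, all kept cells of an embryo, leaving out each embryo, scran 1.30.0 size factors and pseudocounts of 0.1 and 10. A wider gap between classes (3 and -1), sums of at least 2 cells, and correlations at E6.5 without 1 cell or embryo 1 were added after seeing the data. Embryos are the replicates, and p-values measure the spread between them.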

Additional observations from a re-analysis of the deposited data

Results flagged for a closer look

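Among 12 sets of 5 embryos at E4.5 (6 genes in 2 classes), 2 held an embryo far from the others by Dixon's criterion, where chance alone gives about 0.6. *Pou5f1* in endoderm-like cells had a mean log2 level of 7.058 in embryo 5 (14 cells, of which 13 held a read). The nearest other embryo was at 8.89 and the highest at 9.463. As given above, the label of embryo 5 may cover cells of different embryos. *L1td1* in endoderm-like cells was at 6.851 in embryo 1 (9 cells), while the nearest was at 4.696 and the lowest at 4.059. The class difference of *Sox2* changed between E4.5 and E6.5 by 5.828 on the log2 scale (SE 1.212; edgeR, adjusted p = 0.000232).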

How the results depend on the processing

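Depth, few embryos and cuts in a continuous marker range at E6.5 limit these results, and the cause of each change was not tested. Of the fold changes of the 6 genes, 368 kept direction and call when a setting was changed and 389 when an embryo was left out. Of the others, 16 and 4 newly passed the threshold while 11 and 3 lost it. The 389 overstate how stable the values are. They include class fits without the E4.5 embryo that these fits never held, which repeat the main fit and could not differ. The only E5.5 embryo could not be left out of its own comparisons. Genes called were 39 (E5.5 against E4.5), 356 (E6.5 against E4.5) and 24 (E6.5 against E5.5) in epiblast-like cells, 1637, 1019 and 245 between endoderm-like and epiblast-like cells at the 3 stages in order, 366 for the change of that difference, 14 for mesoderm-like cells and 1066 for endoderm-like cells over time. In this order DESeq2 gave 315, 843, 94, 2508, 2027, 9 (mesoderm) and 1617 (endoderm over time). No filter gave 206, 678 and 132 in the epiblast. Limma gave 24, 1204 and 1 in the epiblast, 60 and 19 between classes at E5.5 and E6.5, 6 for the change and 50 for mesoderm. All kept cells gave 272, 1008 and 59. Leiden classes gave 174 for the epiblast and 153 for endoderm from E4.5 to E6.5, but at E6.5 their epiblast held 21 mesoderm-like cells and 1 epiblast-like cell, all of embryo 2, and their endoderm 11 endoderm-like and 4 trophoblast-like cells, so they compare other cells. The wider gap gave 108 (E6.5), 122 (change), 6 (mesoderm) and 268 (endoderm over time). Of the 6 genes, DESeq2 called 2 in both epiblast comparisons with E4.5, limma 2 at E6.5, and Leiden classes (*L1td1*, mostly in mesoderm-like cells) and all kept cells 1 each (0 in the main test). Between classes limma called 1 of 3 at E5.5 and 0 of 1 at E6.5 and for the change. In endoderm over time limma called 2 and Leiden classes 0 (1 in the main test).

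Embryos of the same number at E4.5 and E6.5 did not deviate together (r = -0.0033 and 0.0103 over 12252 genes), so they share only a number. Used as a replicate block, the embryo numbers gave calls for 568 genes and 1 of the 6 in the epiblast at E6.5 against E4.5, and for 492 and 0 in endoderm, where *Utf1* turned to -0.391. Without the replicate block within embryos, 669 (E5.5), 142 (E6.5), 214 (change) and 2 (mesoderm) genes were called, with 0 of the 6 at E6.5, and in mesoderm *Sox2* turned to 0.033 and *Lin28a* to 0.107. No block could be made with the E5.5 embryo, whose number no other stage has, and Leiden classes gave no value between classes at E5.5 or E6.5, for the change or for mesoderm.

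Leaving out each embryo gave 17 to 92, 86 to 506 and 20 to 49 genes in the epiblast comparisons, 1146 to 1637, 652 to 1117 and 132 to 250 between classes, 136 to 380.0 for the change, 3 to 18 for mesoderm and 392 to 1041 for endoderm over time. Of the 6 genes these gave 0 to 1 for the epiblast at E6.5 against E4.5, 3 to 5 between classes at E4.5, 0 to 1 at E6.5 and 1 to 2 for endoderm over time. The upper 1637 between classes is the main count, since the class fits hold no cells of E4.5 embryo 5. The E5.5 epiblast count was 19 without E4.5 embryo 1 or 2, 17 without 3 and 92 without 5. That of E6.5 against E5.5 was 49 without 5. Without E6.5 embryo 1 or 2 the counts were 86 or 149 (epiblast, E6.5 against E4.5), 665 or 652 (classes, E5.5), 142 or 132 (classes, E6.5), 228 or 136 (change) and 672 or 392 (endoderm over time), and without embryo 1 3 for mesoderm.

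Among the 6 genes, signs that turned belonged to values that had not passed the threshold. With stricter cells these were *Lin28a* (-0.098) and *Utf1* (-0.163) in the epiblast at E6.5 against E5.5 and *Sall4* between classes at E5.5 (0.453). With Leiden classes, whose E6.5 epiblast is mostly mesoderm-like cells, they were *Utf1* (-0.992) and *L1td1* (-0.483) in the same epiblast comparison and *Utf1* in endoderm (-0.149). Limma turned *Sox2* (-1.189) and *Lin28a* (-0.117) between classes at E6.5 and *Lin28a* in mesoderm (0.513). All kept cells turned *Utf1* at E5.5 (0.158) and against E5.5 (-0.248) and *Lin28a* at E6.5 (0.056). The wider gap turned *Lin28a* between classes at E6.5 (-0.123), the change of *Utf1* (-0.065), and *Lin28a* (-0.112) and *Utf1* (-0.735) in endoderm. Over fits that each lack 1 embryo, the log2 fold change from E4.5 to E6.5 in the epiblast ran from -0.295 to 0.055 for *Lin28a* and from -0.633 to 0.118 for *Utf1*, and from E5.5 to E6.5 from -0.156 to 0.584 for *Utf1*. Between classes at E6.5 *Lin28a* ran from -0.072 to 0.225. The change of the class difference ran from -2.614 to 0.227 for *Pou5f1* and from -0.08 to 0.786 for *Utf1*. In mesoderm *Pou5f1* ran from -0.871 to 0.025 and *Lin28a* from -0.086 to 0.035. In endoderm over time *Pou5f1* ran from -2.458 to 0.043, *Lin28a* from -0.066 to 0.314 and *Utf1* from -0.666 to 0.794. For *Pou5f1* the positive values were those without E6.5 embryo 1. With a pseudocount of 0.1 the mean log2 difference of *Lin28a* at E5.5 was 0.297. Thinning to 50000 reads left 24 of 37 pairs of a gene and a class with a read in at least 90% of cells.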
